A study of Mus musculus with 12 samples.

Results

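Wnt signalling genes were examined in peak lists of N6-methyladenosine (m6A), a methyl mark on adenosines inside mRNA, from neural stem cell-like cells (iNSCs) and from the mouse spermatogonial stem cells (SSCs) they had been derived from. The set held 54 of 21887 protein-coding genes of the RefSeq GRCm38.p6 table on chromosomes 1 to 19, X and Y. Genes entered by name, with no peak value in the rule, as 19 Wnt ligands, 10 Frizzled receptors and 25 genes of the co-receptors, receptor turnover, Dishevelled, the destruction complex, β-catenin and the nuclear step. The data were 3 lists of iNSCs and 3 lists of SSCs, each from 1 m6A immunoprecipitation (IP) library. iNSCs had been plated on laminin, kept in SSC medium with 1 µM retinoic acid for 24 h and then moved to a neural medium with basic FGF and SB431542, which blocks type I receptors of TGF-β. The SSC cultures sat on STO feeder fibroblasts, mitotically inactivated, in medium with LIF, EGF, basic FGF and GDNF, so that basic FGF was given to both groups. The strain, the age of the animals, the day on which iNSCs were collected and whether the numbered replicates were separate cultures are not stated in the labels, so p-values measure no more than how far these libraries vary, for technical or other reasons. The series title names MeDIP-Seq, a DNA method, whereas the molecule and protocols describe poly(A) RNA and an m6A antibody, and the peaks were read as m6A in RNA. The comparison addressed which transcripts carry m6A in the derived cells and which in the starting cells.

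Wnt proteins are secreted lipid-modified ligands that bind a Frizzled receptor together with LRP5 or LRP6. Without a ligand, AXIN, APC, GSK3 and casein kinase 1α hold β-catenin in a complex that marks it for degradation. With a ligand, Dishevelled helps to recruit AXIN to the membrane, β-catenin accumulates and works with TCF/LEF factors, BCL9 and Pygopus proteins on target genes. RNF43 and ZNRF3 are membrane ubiquitin ligases that remove Frizzled receptors, and R-spondins act through LGR4, LGR5 and LGR6 to block them. Axin2, Lef1, Lgr5, Rnf43 and Znrf3 are themselves known target genes of the pathway in several tissues. Wnt signals are known to act on proliferation and fate in neural progenitors and in undifferentiated spermatogonia.

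A peak needs a transcript and its methylation. The inputs of the IPs were not used here. A gene without a peak may therefore lack the transcript or the mark, and in these bulk samples fewer cells of a type and less RNA per cell cannot be told apart. The lists held 13913 to 16060 peaks in iNSCs and 19728 to 27597 in SSCs, with median peak widths of 368 to 433 bases in iNSCs and 193 to 205 bases in SSCs. They carry no read counts, so depth is unknown and no detection limit could be given. For all 12 samples the title and source name give 1 cell type and the cell type field gives the other; titles were followed. Of 12 germ cell markers, 1, 1 and 2 had a peak in the iNSC lists and 8, 5 and 7 in the SSC lists, and Ddx4, Zbtb16, Tex14, Sall4 and Id4 had a peak in every SSC list and none in iNSCs. Etv5 went the other way, with 1400, 2931 and 548 covered bases in iNSCs and 288, 0 and 491 in SSCs, and Gfra1 had a peak in iNSC replicate 3 alone. Of 12 neural stem cell markers, 4 had a peak in each iNSC list and 4, 3 and 3 in the SSC lists. Pax6 and Emx2 had peaks in the 3 iNSC lists and in no SSC list, Sox2 and Msi1 the reverse, and Sox1, Hes5, Fabp7, Olig2 and Prom1 had none in any list. SSC lists also held peaks in 5 to 7 of 9 endothelial, 5 to 7 of 8 epithelial, 5 to 6 of 10 testis somatic and 5 to 10 of 12 fibroblast and feeder markers. The iNSC lists held 0 of the endothelial, 0 of the epithelial, 1 of the testis somatic and 4 to 5 of the fibroblast and feeder markers. Over all 63 markers the summed peak number was 22 to 29 in iNSC lists and 72 to 105 in SSC lists. The part of other cell types and of list length in the values below was not tested.

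Promoter windows of Rnf43, Lgr4, Tcf7l1 and Lef1 are shown because peaks reach into them from the start of the gene and their pattern over the lists differs. Of the 54 genes, 38 had a window in the RefSeq promoter table (GRCm38.p6), which runs from 250 bases before to 50 after the gene start. In 16 of these 38 a peak of at least 1 list overlapped the window. Capitals mark bases inside a peak of at least 1 list, and the sequences run 5′ to 3′ on the strand of the gene. The Rnf43 window is chr11:87662837-87663136 on the plus strand and lay wholly inside a peak in each of the 3 iNSC lists. That of Lgr4, chr2:109917397-109917696 on the plus strand, had its last 50 bases in a peak of all 6 lists. The Tcf7l1 window, chr6:72788996-72789295 on the minus strand, was overlapped in 2 iNSC lists and 3 SSC lists. The Lef1 window, chr3:131110047-131110346 on the plus strand, was reached by peaks of 2 SSC lists.
Rnf43: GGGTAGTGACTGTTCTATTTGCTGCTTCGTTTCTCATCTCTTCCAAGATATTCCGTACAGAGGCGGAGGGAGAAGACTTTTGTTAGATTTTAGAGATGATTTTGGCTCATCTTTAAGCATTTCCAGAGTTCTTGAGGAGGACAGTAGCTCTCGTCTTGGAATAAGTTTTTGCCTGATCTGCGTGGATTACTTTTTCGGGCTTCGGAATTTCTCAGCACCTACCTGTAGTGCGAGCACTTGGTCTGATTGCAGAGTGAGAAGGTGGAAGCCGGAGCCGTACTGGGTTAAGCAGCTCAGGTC
Lgr4: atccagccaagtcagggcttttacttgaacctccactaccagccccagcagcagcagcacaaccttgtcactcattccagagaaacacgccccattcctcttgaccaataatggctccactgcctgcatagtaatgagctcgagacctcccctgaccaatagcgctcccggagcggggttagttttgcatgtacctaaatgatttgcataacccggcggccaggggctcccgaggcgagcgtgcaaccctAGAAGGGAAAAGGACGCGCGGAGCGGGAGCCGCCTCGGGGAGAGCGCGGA
Tcf7l1: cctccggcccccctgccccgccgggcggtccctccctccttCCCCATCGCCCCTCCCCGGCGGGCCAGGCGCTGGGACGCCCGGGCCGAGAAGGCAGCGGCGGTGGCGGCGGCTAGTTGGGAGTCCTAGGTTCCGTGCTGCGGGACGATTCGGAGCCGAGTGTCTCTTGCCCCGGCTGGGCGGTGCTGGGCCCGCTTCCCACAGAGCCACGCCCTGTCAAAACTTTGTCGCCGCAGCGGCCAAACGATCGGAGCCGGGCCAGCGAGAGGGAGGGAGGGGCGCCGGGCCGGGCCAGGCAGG
Lef1: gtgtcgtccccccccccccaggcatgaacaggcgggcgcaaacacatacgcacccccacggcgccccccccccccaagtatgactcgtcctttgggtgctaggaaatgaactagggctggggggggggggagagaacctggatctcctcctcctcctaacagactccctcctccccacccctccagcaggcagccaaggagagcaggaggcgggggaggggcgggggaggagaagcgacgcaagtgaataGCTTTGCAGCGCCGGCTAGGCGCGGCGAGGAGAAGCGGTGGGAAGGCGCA
GGAC, the core of the most frequent m6A sequence context, was searched on the gene strand, and its reverse complement GTCC for the other strand. On the gene strand it occurred once in the Rnf43 window, once in that of Lgr4 and at 2 places in that of Tcf7l1, each time inside the capitals, and it was not in the Lef1 letters shown. Of all 32851 promoter windows, 65.6% held GGAC on the gene strand and 66.1% on the other strand, so a match is common. It describes the letters and does not mark a site.

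Of the 54 Wnt pathway genes, 48 had a peak in at least 1 list, or 88.9%, against 60.2% of all protein-coding genes. No peak was listed for Wnt1, Wnt2b, Wnt3a, Wnt16, Fzd9 and Dvl2. The iNSC lists held peaks in 21, 20 and 21 of the genes and the SSC lists in 33, 32 and 39, and the groups did not overlap. The mean share was 38.3% ± 1.07 in iNSCs and 64.2% ± 7.01 in SSCs (SD, n = 3 each), whereas 31% ± 1.31 of all protein-coding genes had a peak in iNSCs and 42.5% ± 4.63 in SSCs. With the 13913 best-scoring peaks kept from every list (equal list length), 21, 20 and 20 Wnt pathway genes had a peak in iNSCs and 24, 27 and 28 in SSCs. Of all protein-coding genes, 29.3% to 29.7% then had a peak in iNSC lists and 29.1% to 31.0% in SSC lists. The genes held 51, 53 and 57 peaks in the iNSC lists and 79, 63 and 112 in the SSC lists. As a share of all peaks of a list this was 0.351% ± 0.0180 in iNSCs and 0.353% ± 0.0878 in SSCs (SD, n = 3 each), and at equal list length the means were 51.0 and 51.3 peaks. A peak in at least 1 SSC list and no iNSC list was found for 25 of the 48 genes with a peak, against 40.4% of all genes with a peak. The reverse was found for 4 of the 48, against 4.91%. The bases covered by the peaks differed less, with 51129, 51991 and 47663 in iNSCs and 49387, 43512 and 57871 in SSCs.

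**Figure D1:**
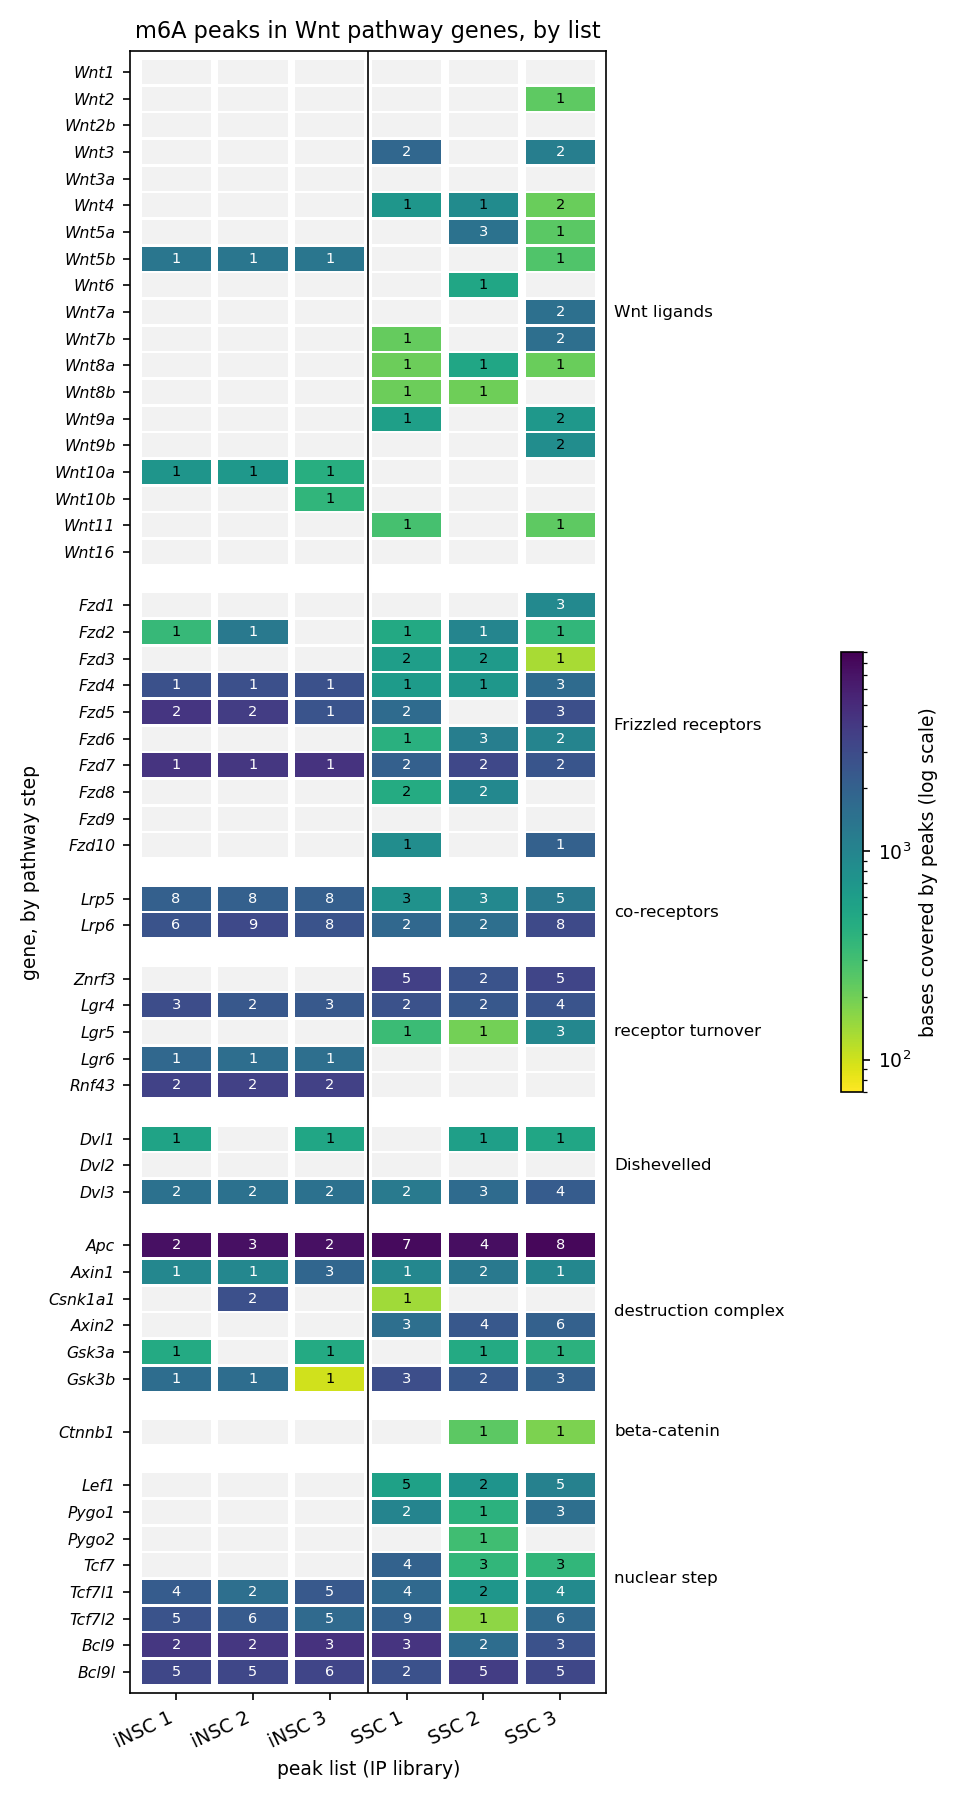
Each row is a Wnt pathway gene, grouped by step, and each column a peak list, with iNSC lists left and SSC lists right of the line. Colour gives the bases covered by peaks on a log scale, the number gives the peaks, and grey means no peak; the ligand block is mostly grey in iNSCs, while Lrp5, Lrp6, Apc and Bcl9l are filled in all 6 lists.

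Rnf43, Lgr6 and Wnt10a were the 3 genes with a peak in all 3 iNSC lists and no SSC list. They make up 6.25% of the 48 genes with a peak, against 2.19% of the 13168 protein-coding genes with a peak in any list. In the reverse direction, 10 genes had a peak in each SSC list and in none of the iNSC lists: Axin2, Fzd3, Fzd6, Lef1, Lgr5, Pygo1, Tcf7, Wnt4, Wnt8a and Znrf3. Their share was 20.8%, against 11.3% of all genes with a peak. A peak in all 6 lists was found for 13 genes, or 27.1%, against 30.0%. The other 22 genes with a peak fell between these patterns. The counts were small and no test was made over the set. In the better-scoring 50% of each list, 40 of the Wnt pathway genes had a peak. Of these, 1 gene (Rnf43) was left in the iNSC direction and 6 in the SSC direction, where the shares of all genes were 4.51% and 10.0%. At equal list length the 3 iNSC-direction genes were the same, and 6 of the 10 SSC-direction genes remained (Axin2, Fzd3, Lef1, Pygo1, Tcf7 and Znrf3). At this length 41 of the Wnt pathway genes had a peak, and the shares of all genes were 6.9% and 6.92%.

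Bases covered by peaks were compared gene by gene. More covered bases in every iNSC list than in any SSC list were found for 7 genes, or 14.6% of the 48, against 17.6% of all genes with a peak. These were Rnf43, Lgr6, Wnt10a, Wnt5b, Fzd4, Fzd7 and Lrp5. Fewer were found for 12 genes, or 25.0%, against 15.5%, namely the 10 genes above with Apc and Gsk3b. For each of these 19 genes the exact two-sided permutation test gave p = 0.1, the smallest that 3 lists against 3 allow. The smallest value after Benjamini-Hochberg adjustment over the 13168 genes was 0.302, so no single gene was significant. With the better-scoring 50% of peaks, the separation was lost for Fzd7, Lgr6, Wnt10a and Wnt5b, and for Fzd6, Gsk3b, Lgr5, Wnt4 and Wnt8a in the other direction. These last 5 were also lost at equal list length. Gained in the iNSC direction were Bcl9, Fzd5 and Lrp6 with the better-scoring 50%, and Bcl9, Dvl3, Fzd5, Lrp6 and Tcf7l2 at equal length. At equal length 12 of the 41 genes with a peak thus had more covered bases in iNSCs and 7 fewer, which turns the balance of counts within the set. The shares of all genes moved too, from 17.6% and 15.5% in the full lists to 27.3% and 9.18%. At both lengths the share of all genes was larger for more covered bases.

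Ligand genes carried few peaks in iNSCs. Of 19 Wnt genes, 2, 2 and 3 had a peak in the iNSC lists and 7, 5 and 11 in the SSC lists, and 15 had a peak in any list. For this and the later steps, the share of all protein-coding genes with a peak is the comparison. It was 29.5% to 31.9% in iNSC lists and 37.2% to 45.3% in SSC lists. At equal list length, a breakdown by step chosen after seeing the data, the counts were 2, 2 and 2 in iNSCs and 3, 2 and 3 in SSCs, so the groups touched. The share of all protein-coding genes at that length was 29.3% to 29.7% in iNSC lists and 29.1% to 31.0% in SSC lists. Wnt10a, a ligand of skin and tooth development, had 1 peak in each iNSC list, over 716, 677 and 426 bases, and none in SSCs. The 3 peaks ended together 3 bases past the annotated end of the gene, in the region chr1:74803464-74804179. Wnt5b, whose protein often acts without β-catenin, had 1 peak of 1326 bases with the same edges in each iNSC list. In SSCs Wnt5b had 1 peak of 267 bases, in replicate 3, at another place. The iNSC peak of Wnt5b lay at the end of the gene, chr6:119432531-119433856, with score percentiles of 48.1, 31.2 and 58.1. A percentile ranks the score of a peak among all peaks of its own list, with a high value for a strong peak. Peaks of 1876 to 3443 bases within the Wnt5b span lie on the other strand and belong to Fbxl14. Wnt10b had 1 peak in iNSC replicate 3 and was the only other ligand gene with a peak in iNSCs.

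In the full SSC lists, which are longer, ligand peaks were spread over 13 genes, most of them in 1 or 2 lists. Wnt4, needed for kidney and female gonad development, had 0 covered bases in each iNSC list and 705, 886 and 212 in the SSC lists. Its shared region chr4:137296312-137297197 had within-list percentiles of 68.8, 57.1 and 12.7, so the peak of SSC replicate 3 ranked low. Wnt8a, an early embryonic ligand, had no covered bases in iNSCs and 207, 511 and 211 in SSCs. Its percentiles were 84.0, 1.30 and 21.3, which places the peak of SSC replicate 2 near the bottom of its list. Wnt3, Wnt7b, Wnt9a and Wnt11 had peaks in SSC replicates 1 and 3, Wnt8b in replicates 1 and 2, and Wnt5a in replicates 2 and 3, each with none in iNSCs. Wnt2, Wnt7a and Wnt9b had peaks in SSC replicate 3 alone and Wnt6 in SSC replicate 2 alone. SSC replicate 3 thus held the most ligand genes, 11 of 19, and 17 ligand peaks, against 8 in SSC replicate 1 and 7 in replicate 2.

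Frizzled receptor genes showed both directions. Of 10 genes, 4, 4 and 3 had a peak in iNSCs and 8, 6 and 8 in SSCs. At equal list length the counts were 4, 4 and 3 in iNSCs and 4, 5 and 8 in SSCs, and the groups overlapped. Fzd4, a receptor of retinal vessel growth that also binds norrin, had 2698, 2764 and 2679 covered bases in the iNSC lists and 644, 693 and 1684 in the SSC lists. Its mean covered length was 2.69 times as long in iNSCs, and the groups did not overlap. Without SSC replicate 3 the ratio was 4.06. All lists had a peak in the region chr7:89407032-89409795, which ends 315 bases before the end of the gene, and SSC replicate 3 had another peak near the gene start. Fzd7, a receptor of stem and progenitor cells in several tissues, had 1 peak of 4352, 4152 and 4449 bases in iNSCs, which began at the first base of the gene. In SSCs it had 2 peaks in each list, with 2051, 3152 and 2516 covered bases, a ratio of 1.68. As a share of all bases covered by each list, the groups overlapped for Fzd7. Fzd5 had 4231, 3805 and 2572 covered bases in iNSCs and 1668, 0 and 2794 in SSCs, where replicate 2 had no peak and replicate 3 reached into the iNSC range.

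Fzd3 and Fzd6 had peaks in SSCs alone. Fzd3, a receptor of axon growth and planar cell polarity, had 604, 652 and 132 covered bases in SSC lists. All of its SSC lists held a peak in the window of 132 bases at the start of the gene, chr14:65262332-65262463, with percentiles of 77.7, 74.0 and 77.6. Fzd6, a planar polarity receptor of hair patterning, had 416, 1152 and 1004 covered bases in SSCs, and the shared region chr15:39034808-39035227 had percentiles of 46.5, 71.2 and 77.3. Fzd8 had 2 peaks in SSC replicates 1 and 2 and none in replicate 3, and Fzd10 had 1 in replicates 1 and 3. Fzd1 had 3 peaks in SSC replicate 3 alone. Fzd2 had a peak in 2 iNSC and 3 SSC lists, with overlapping values.

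Lrp5 and Lrp6, the co-receptor genes, carried peaks in every list. Lrp5 had 8 peaks in each iNSC list and 3, 3 and 5 in the SSC lists. Its covered bases were 2082, 2072 and 2128 in iNSCs and 765, 928 and 1274 in SSCs, a ratio of 2.12 with no overlap. Of the regions called in all 3 iNSC lists, 5 were also called in at least 1 SSC list. Regions chr19:3647528-3647659 and chr19:3686355-3686564, which begins 21 bases into the gene, were called in 3 iNSC lists and no SSC list. Percentiles were 1.06, 13.2 and 47.6 for the one inside the gene and 10.5, 9.24 and 48.4 for the one at its start. Lrp6 had 6, 9 and 8 peaks in iNSCs and 2, 2 and 8 in SSCs. Its covered bases, 2609, 3071 and 2615 in iNSCs and 1771, 1550 and 3006 in SSCs, overlapped through SSC replicate 3. The Lrp6 region chr6:134449527-134451080 had a peak in all 6 lists with percentiles of 90.9 or more. The region chr6:134520396-134520593 was called in 3 iNSC lists alone, with percentiles of 38.7, 40.6 and 59.0.

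Receptor turnover genes with a peak differed between the groups. Each list held a peak in 3 of the 5 genes, which were Rnf43, Lgr6 and Lgr4 in all iNSC lists and Znrf3, Lgr5 and Lgr4 in all SSC lists. At equal list length the counts were 3, 3 and 3 in iNSCs and 3, 2 and 2 in SSCs. Rnf43 had 2 peaks in each iNSC list, over 3441, 3505 and 3505 bases. The peaks at the start of the gene began upstream of its annotated start (region chr11:87662722-87664867), and the others, chr11:87731027-87732385, had the same edges in the 3 lists, 3154 bases before the end of the gene. The best within-list percentiles of Rnf43 were 75.4, 72.1 and 75.5. Znrf3, its paralogue, had 5, 2 and 5 peaks in SSCs over 3610, 2588 and 3351 bases. The Znrf3 region chr11:5280378-5282505 had percentiles of 76.6, 68.3 and 88.9 in SSCs and lay 4049 bases before the end of the gene.

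Lgr6, a marker of stem cells of hair follicle and skin, had 1 peak in each iNSC list, over 1778, 1592 and 1546 bases. The Lgr6 peaks fell in the region chr1:134986348-134988125, which ends 3048 bases before the end of the gene, and their percentiles were 41.3, 55.9 and 69.2. Lgr5, a stem cell marker of the gut, had 1, 1 and 3 peaks in SSCs over 329, 198 and 944 bases. No Lgr5 region was shared by the 3 SSC lists, and the best percentiles were 63.8, 6.45 and 37.4. Lgr4 had 2893, 2424 and 2349 covered bases in iNSCs and 2666, 2425 and 2554 in SSCs, a ratio of 1.00. Its peak over the first 659 bases, of which the first 50 are the capitals printed above, had the same edges in all 6 lists. Its percentiles were 61.7, 19.8 and 76.4 in iNSCs and 92.4, 96.1 and 97.6 in SSCs. The peak near the end of Lgr4, chr2:110011251-110013429, stood at percentiles of 92.3, 90.9 and 91.8 in iNSCs and at 80.0, 44.0 and 65.2 in SSCs. Its score was 3100 in each iNSC list, a value that many peaks shared. Some peaks scored higher, such as a Bcl9 peak at 3185.95 in iNSC replicate 2. Peaks with the same score share 1 mean percentile.

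**Figure D2:**
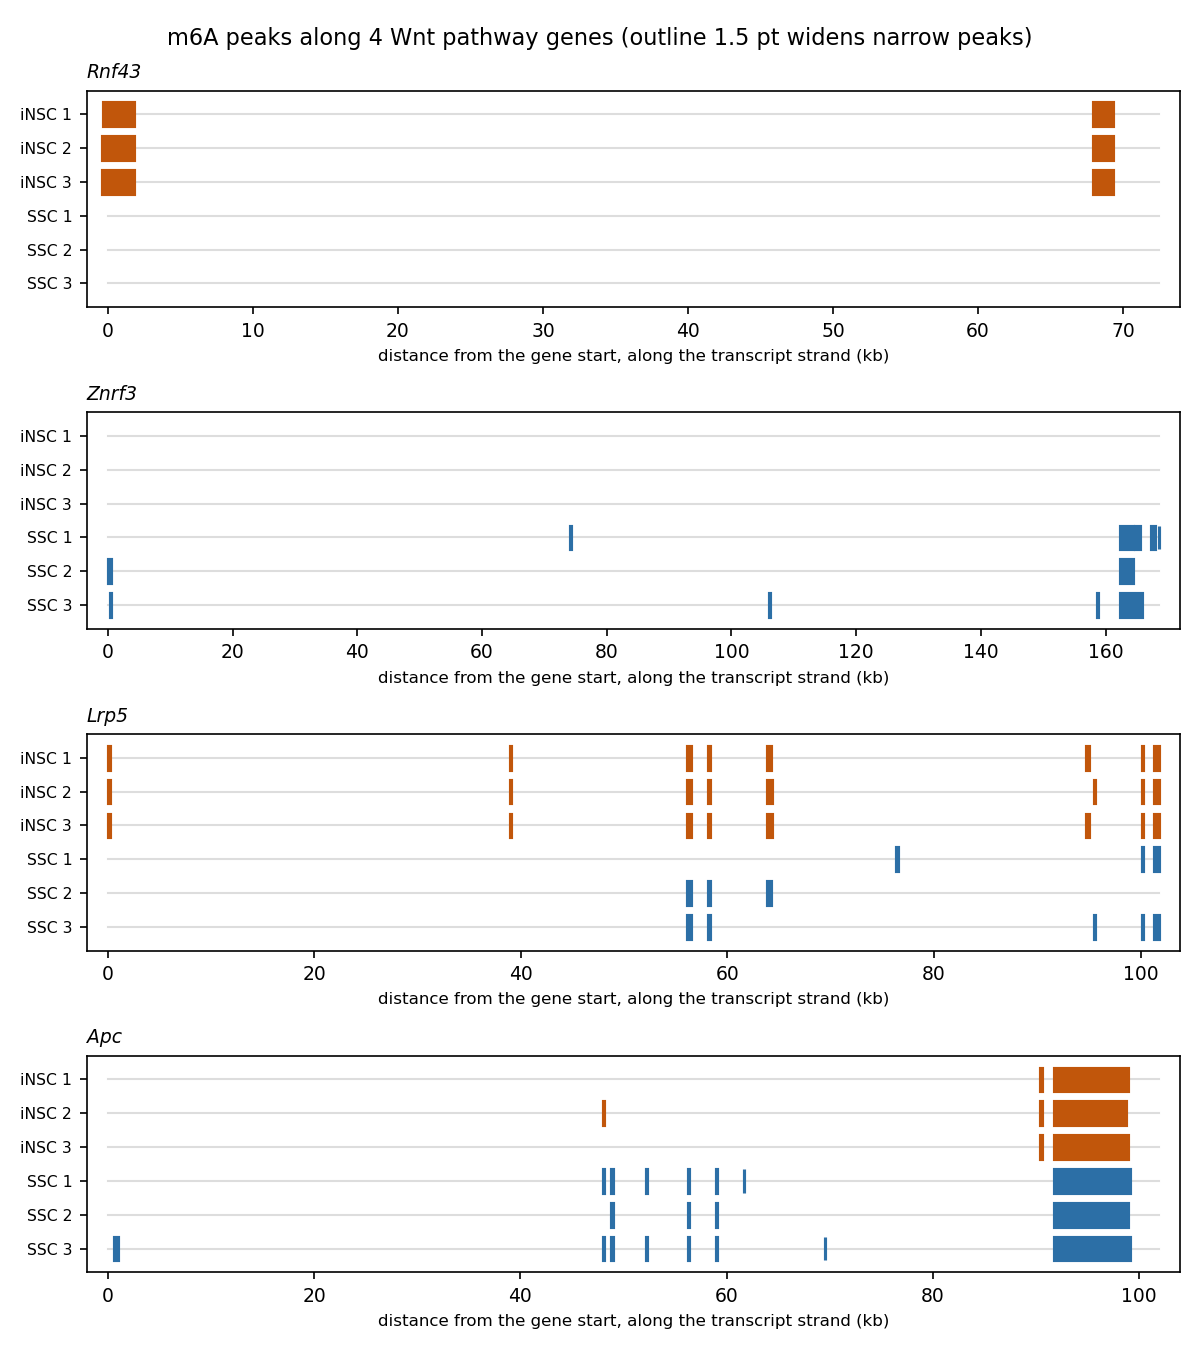
Bars are m6A peaks along Rnf43, Znrf3, Lrp5 and Apc, with the distance from the gene start in kb on the x axis and 1 row per list, iNSC lists above SSC lists. Rnf43 has 2 peaks in each iNSC list and none in SSCs, Znrf3 the reverse pattern with 5, 2 and 5 peaks in SSCs, and Lrp5 has 8 peaks in each iNSC list against 3, 3 and 5.

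Dishevelled genes overlapped between the groups. Dvl3 had 1482 covered bases in each iNSC list and 1248, 1671 and 2217 in the SSC lists. Dvl1 had a peak in 2 iNSC lists and 2 SSC lists, and Dvl2 had none. The 3 genes carry the signal from Frizzled to the destruction complex.

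Destruction complex genes had peaks in 4 of 6 genes in every iNSC list and 5 of 6 in every SSC list, and at equal list length in 4, 4 and 4 in iNSCs and 4, 5 and 5 in SSCs. Apc, the tumour suppressor scaffold, had the longest coverage of the set, 7381, 7340 and 7411 bases in iNSCs and 7968, 7567 and 8329 in SSCs. The means differed by a factor of 0.927, and the groups did not overlap. Most of it was the region chr18:34312005-34319381, called in all 6 lists with percentiles of 90.9 or more. That region began 91708 bases into the gene. Nearer the gene start, beginning 48759 to 58972 bases into it, Apc had 3 short regions of 84 to 199 bases in the 3 SSC lists and no iNSC list. It also had 1 region of 215 bases, beginning at 90396, in the 3 iNSC lists and no SSC list. Peak numbers were 2, 3 and 2 in iNSCs and 7, 4 and 8 in SSCs. Gsk3b, a kinase of β-catenin, had 1613, 1613 and 99 covered bases in iNSCs and 2830, 2403 and 2039 in SSCs. Its peak over the first 1613 bases was listed in iNSC replicates 1 and 2 and, wholly or in part, in all SSC lists, but not in iNSC replicate 3. Gsk3b also had the region chr16:38240502-38241519 in SSC lists alone, with percentiles of 59.0, 17.5 and 53.6.

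Axin1 and Axin2 encode scaffold proteins of the complex. Axin1 had a region of 959 bases, chr17:26142618-26143576, with the same edges in all 6 lists. It stood at the shared score of 3100 in each iNSC list (percentiles 92.3, 90.9 and 91.8) and at percentiles of 39.1, 88.4 and 53.6 in SSCs. Axin2, made in response to β-catenin in many tissues, had no peak in iNSCs and 3, 4 and 6 peaks in SSCs, over 1543, 2393 and 2038 bases. Region chr11:108923152-108924102 of Axin2 had percentiles of 19.8, 54.0 and 76.9 in SSCs, and region chr11:108949269-108950100, which ends 683 bases before the end of the gene, had 56.6, 33.0 and 68.2. Gsk3a had a peak in 2 iNSC lists and 2 SSC lists. Csnk1a1 had 2 peaks in iNSC replicate 2 and 1 in SSC replicate 1. Ctnnb1, which encodes β-catenin, had no peak in iNSCs and 1 peak in SSC replicates 2 and 3, of 239 and 181 bases at the start of the gene, and none in SSC replicate 1.

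The nuclear step divided into genes with peaks everywhere and genes with peaks in SSCs alone. Its iNSC lists each had a peak in 4 of 8 genes, Tcf7l1, Tcf7l2, Bcl9 and Bcl9l, and its SSC lists in 7, 8 and 7. These counts were the same at equal list length, in the breakdown by step chosen after seeing the data. Of all protein-coding genes, 29.3% to 29.7% then had a peak in iNSC lists and 29.1% to 31.0% in SSC lists. Tcf7, a TCF factor best known in T cells, had 4, 3 and 3 peaks in SSCs, over 1983, 370 and 366 bases, and none in iNSCs. The region chr11:52256949-52257111 of Tcf7 had the same edges in the 3 SSC lists and percentiles of 96.3, 85.9 and 97.6, the highest best percentiles among the regions of the set called in all 3 lists of 1 group alone. Lef1, the TCF-related factor, had no covered bases in iNSCs and 562, 724 and 1092 in SSCs. Lef1 peaks were short, and the shared region chr3:131194625-131194787 had percentiles of 1.51, 56.5 and 54.6. Pygo1, a β-catenin co-activator, had 1007, 402 and 1551 covered bases in SSCs and none in iNSCs, while Pygo2 had 1 peak in SSC replicate 2.

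Tcf7l1, which represses target genes in the absence of a signal, had 2236, 1556 and 2372 covered bases in iNSCs and 1752, 705 and 903 in SSCs. Tcf7l2 had 2608, 2276 and 1721 in iNSCs and 2005, 160 and 1707 in SSCs, where replicate 2 had 1 peak alone. Bcl9 had 4160, 4156 and 4465 in iNSCs and 4376, 1624 and 2647 in SSCs. For each of these 3 genes the ranges overlapped through 1 SSC list, replicate 1. Bcl9l had 3206, 3206 and 3326 covered bases in iNSCs and 2673, 3819 and 3206 in SSCs. Its regions chr9:44500745-44501130 and chr9:44505584-44507870 had the same edges in all 6 lists and stood at the shared score of 3100 in all iNSC lists. In SSCs their percentiles were 85.9, 73.8 and 93.1, and 70.9, 80.7 and 94.5.

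**Figure D3:**
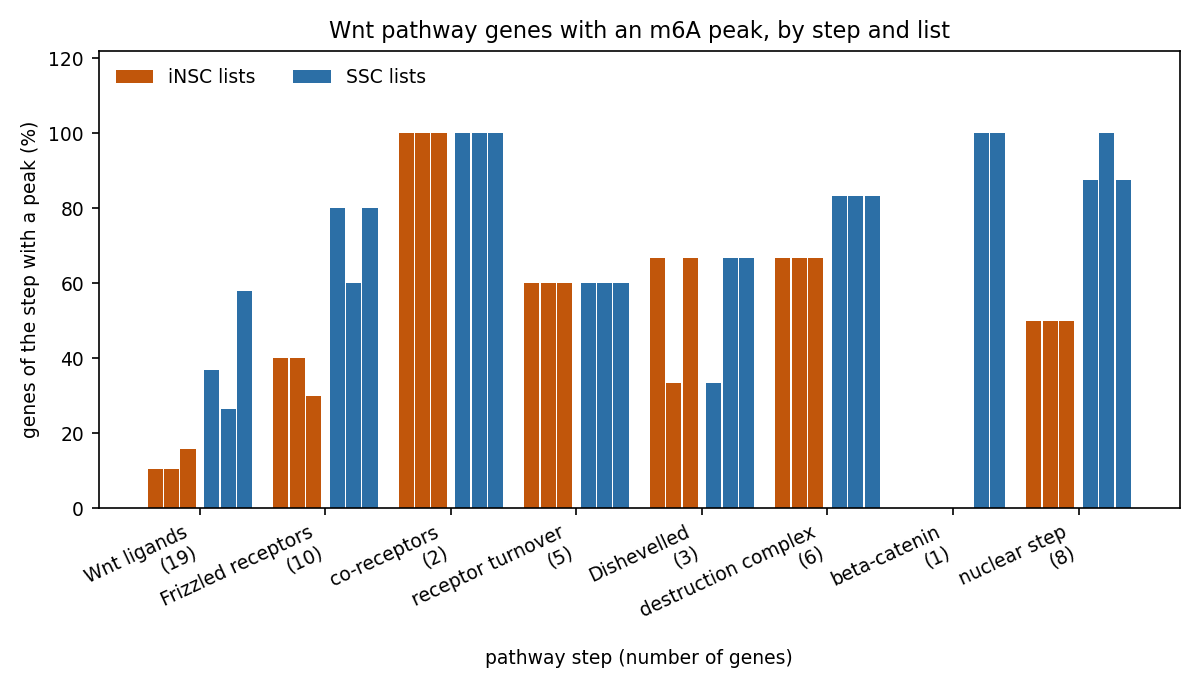
Bars give, for each list, the percentage of genes of a pathway step that had a peak, with the number of genes of the step on the x axis; iNSC lists stand left of SSC lists. iNSC bars are lower for ligands, Frizzled receptors, the destruction complex and the nuclear step, and equal for the co-receptors and receptor turnover. The bars show the full lists, in which 29.5% to 31.9% of all protein-coding genes had a peak in iNSCs and 37.2% to 45.3% in SSCs. At equal list length the groups touch or overlap for ligands, Frizzled receptors and the destruction complex.

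**Figure D4:**
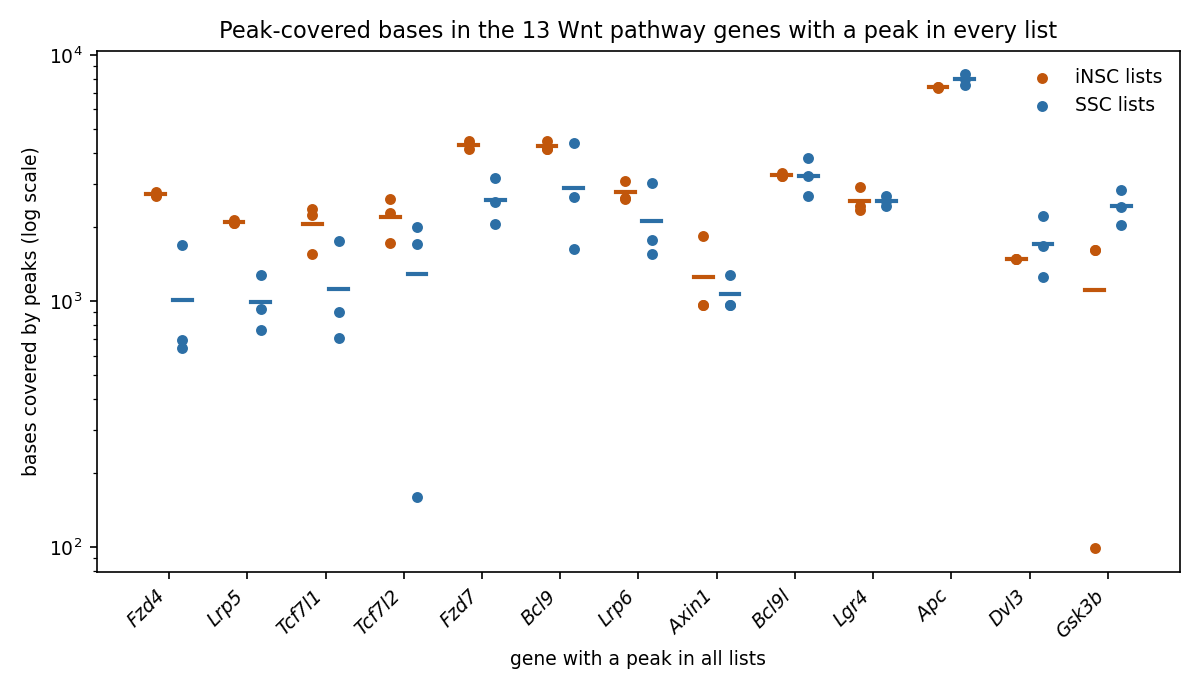
Points are the bases covered by peaks in each list (log scale) for the 13 genes with a peak in all 6 lists, iNSC left and SSC right of each gene, and lines are means of 3 lists. Fzd4, Lrp5 and Fzd7 lie higher in every iNSC list, Apc and Gsk3b lower, and the other 8 overlap.

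Among the 13 genes with a peak in every list, the median ratio of mean covered bases, iNSC over SSC, was 1.31, and it was 1.17 over the 3953 genes of this kind in the whole series. Of the 13, 3 lay higher in every iNSC list (23.1%, against 28.2% of the 3953) and 2 lay lower (15.4%, against 8.37%). At the level of regions, the 54 genes held 173, of which 81 were called in a single list. Calls in the 3 iNSC lists alone made up 9 regions (5.2%, against 3.37% of 47120 regions in genes), 13 in the 3 SSC lists alone (7.51%, against 5.61%) and 11 in all 6 lists (6.36%, against 10.2%). The SSC count was 20 without SSC replicate 1 (against 11.3% of all regions in genes) and 24 without SSC replicate 2 (against 10.4%). The share of all regions thus rose as well. At equal list length 10 regions were called in iNSCs alone (against 8.37% of all regions in genes) and 6 in SSCs alone (against 4.28%), which turns the balance of counts. Over all regions in genes the balance turned in the same direction, from 3.37% and 5.61% in the full lists. With the better-scoring 50% the counts were 3 in iNSCs alone and 5 in SSCs alone (against 4.89% and 7.74%). The number of regions of the set under these alternatives was not kept, so its shares are not given. Of the 92 regions found in at least 2 lists, 51 had exactly the same edges in 2 or more lists, and 5 regions had the same edges in all 6. What set these edges is not given in the sources used here. Where they coincide, covered bases and widths repeat between lists, as for Dvl3 and Wnt5b in iNSCs.

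Peaks of Wnt pathway genes were also compared in score and place. A score of 3100 or more was reached by 10, 12 and 11 of their peaks in iNSC lists and by 1, 1 and 4 in SSC lists, without overlap. That is 20.5% ± 1.85 of their peaks in iNSCs and 2.14% ± 1.25 in SSCs (SD, n = 3 each), against 16.2% ± 1.34 of all peaks in iNSCs and 5.26% ± 2.03 in SSCs. Within 2000 bases of the gene end lay 24.4% ± 4.61 of the peaks in iNSCs and 21.8% ± 6.39 in SSCs, against 26.6% ± 1.53 of all peaks placed in genes in iNSCs and 18.9% ± 1.39 in SSCs. The first 500 bases held 16.2% ± 3.22 in iNSCs and 16.1% ± 8.93 in SSCs, against 12% ± 2.55 of all peaks placed in genes in iNSCs and 11.2% ± 2.62 in SSCs. The groups overlapped in both places.

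Other genes of the pathway were counted in the same way. Of 69 such genes, 59 had a peak. It was in all 6 lists for 23 (39.0%, against 30.0% of all genes with a peak), in the 3 SSC lists and no iNSC list for 12 (20.3%, against 11.3%), and in the reverse direction for 0 (against 2.19%). The iNSC lists held peaks in 26, 30 and 30 of them and the SSC lists in 55, 42 and 51, and at equal list length the counts were 26, 27 and 29 in iNSCs and 35, 37 and 36 in SSCs. At equal length 45 of these genes had a peak. Of them, 2 were called in iNSCs alone and 9 in SSCs alone, against 6.9% and 6.92% of all genes. More covered bases in every iNSC list were found for 7 (11.9%, against 17.6%), namely Vangl1, Usp34, Ppp2ca, Csnk1d, Amer1, Chd8 and Jun, and fewer for 13 (22%, against 15.5%). At equal length this balance turned. More covered bases were then found for 13 of the 45 genes with a peak and fewer for 9, against 27.3% and 9.18% of all genes. Sfrp1, Sfrp2, Sfrp4 and Sfrp5, which encode secreted frizzled-related proteins that bind Wnt ligands, were all among the 12. Rspo2, an R-spondin ligand of the LGR receptors, had no peak in iNSCs and 5, 2 and 4 in SSCs. The remaining 7 were the planar polarity genes Vangl2 and Celsr2, the Wnt receptor gene Ror2, the formin gene Daam2, the Dishevelled-binding genes Nkd1 and Dact1, and the co-repressor gene Tle4. Among 6 listed target genes, 3, 3 and 4 had a peak in iNSCs and 5, 4 and 5 in SSCs.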

How the data were processed

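Peak lists of 6 m6A IP libraries were used, 3 titled iNSC and 3 titled SSC. The 6 input samples were left out. According to the labels' protocols, poly(A) RNA was cut to about 200 nt, pulled down with an m6A antibody and made into directional libraries. HISAT2 2.0.4, cutadapt 1.9.3 and mm9 stand in the submitters' processing notes. Peak names carry a MACS prefix, but how peaks were called is not given in the sources used. The authors deposited a score for each peak, with no unit and a lowest value of 50, and it served here for ranks and filters inside a list.

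Peak edges fell on gene edges of GRCm38.p6 for 4.90% to 12.0% of peaks, against at most 0.0187% after a shift of 10000 bases, so coordinates are given on GRCm38, 1-based. A peak was placed in the protein-coding gene it overlapped by at least 1 base on its own strand, and 97.7% of 118075 peaks were placed. Gene strand came from the RefSeq promoter table (38 of the 54 genes) or from over 90% of the gene's peaks (16). Same-strand peaks of all lists that overlapped were merged into regions. Counts of genes and regions are presence calls without a test. Covered bases of single genes were compared with exact permutation tests. Placement and calls were checked on simulated peak lists. Alternatives were fixed ahead of these computations, but the genes and lists were chosen with earlier results of these data known. Genes named in full were those called in a single group or with covered bases that did not overlap, and Ctnnb1, Apc, Axin1, Axin2, Lrp5, Lrp6 and Gsk3b. Python 3.11.15, pandas 2.3.3 and numpy 2.4.6 were used.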

Additional observations from a re-analysis of the deposited data

How the results depend on the processing

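Of 110 values recomputed under alternatives, 15 moved, which for counts means by over 1.5 times and for differences by over 1 SD between libraries. Counts have no sign. The differences between groups kept theirs, but within the Wnt pathway gene set 2 balances of counts turned at equal list length, covered bases and regions. Over all regions in genes the balance turned as well. Over all genes, more covered bases in iNSCs was the more frequent call both in the full lists and at equal length. The iNSC minus SSC difference in genes with a peak was -14.0; keeping the better-scoring 50% of peaks made it -9.0, and equal list length -6.0. The difference in peaks was -31, -17.7 in the better-scoring 50% and -0.333 at equal length. In the better-scoring 50%, 1 gene was called in iNSCs alone and 6 in SSCs alone. Fewer covered bases in iNSCs were found for 7 of 40 genes with a peak, against 13.6% of all genes. Regions called in iNSCs and SSCs alone were 3 and 5. At equal length 6 genes and 6 regions were called in SSCs alone, 10 regions in iNSCs alone, 12 genes had more and 7 fewer covered bases in iNSCs. That setting shortens mostly the SSC lists. With a peak in 2 of 3 lists enough, 19 genes were called in SSCs alone, against 22.5% of all genes. A minimum width of 100 bases, an overlap of 50% and placing peaks without strand moved no count by over 1.5 times.

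Leaving out 1 library gave differences of -15.3 to -11.8 genes and -41.8 to -17.3 peaks (the smallest without SSC replicate 3), 3 to 4 genes in iNSCs alone, 10 to 15 in SSCs alone, 7 to 10 genes with more and 12 to 17 with fewer covered bases, 9 to 13 regions in iNSCs alone and 13 to 24 in SSCs alone. The last count was 20 without SSC replicate 1 (against 11.3%) and 24 without SSC replicate 2 (against 10.4%). The shares of all genes with a peak rose too. For SSCs alone the share was 11.3% in the full lists and 14.9% or more when any 1 SSC replicate was left out. The 17 genes with fewer covered bases, found without SSC replicate 2, stood against 24.8%, up from 15.5%. The 10 with more, without SSC replicate 1, stood against 22.9%, up from 17.6%. The 4 genes in iNSCs alone, without SSC replicate 3, stood against 4.21%, up from 2.19%. Without SSC replicate 3, Wnt5b joined the genes in iNSCs alone. Groups separated for 20 to 25 single genes then, against 19.

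Correlations of same-numbered deviations were 0.0266, 0.0274 and 0.109, and those of other numbers ran from -0.109 to 0.0803. The highest was that of iNSC replicate 3 with SSC replicate 3, while iNSC replicate 2 correlated more with SSC replicate 1 (0.0803) than with its own number. Such weak correlations do not show whether the numbers pair the libraries. With the replicate block 9 genes had more and 12 fewer covered bases in iNSCs, against 20.5% and 17.3% of all genes with a peak. In all pairs 21 genes moved the same way, where the smallest exact p is 0.25. The lists give no depth, so a missing peak has no detection limit.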
